A study of Mus musculus with 2 samples.

Results

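The genes described were the forkhead factors Foxo1, Foxo3 and Foxo4 and the muscle ubiquitin ligase genes Trim54, Trim55, Trim63, Fbxo32, Fbxo30, Fbxo21 and Mul1, a named list of 10 among the 55536 mouse genes measured. All 10 were found by symbol. The tissue was gastrocnemius, the large calf muscle, taken at an age of 4 days from female mice of strain B6CASTF1/J. B6CASTF1/J animals are hybrids between C57BL/6J and CAST/EiJ mice, and the labels name no engineered allele or treatment. The study held 1 group of 2 libraries, made from 300 ng of total RNA each and labelled biological replicates 1 and 2 from animals numbered 3 and 4. Both labels point to 1 donor record and name no litter, and the spread between libraries may be partly technical. No adult, fasted or denervated muscle was analysed here, and the values are levels in growing muscle with their spread, not changes.

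FoxO proteins are transcription factors that Akt kinases keep out of the nucleus when insulin and growth factor signalling is strong. When that signalling weakens, FoxO proteins enter the nucleus and activate genes for protein breakdown, among them ubiquitin ligases that mark muscle proteins for the proteasome. The ligase genes Trim63 (MuRF1) and Fbxo32 (atrogin-1) are the classical markers of muscle wasting.

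Muscle fibre genes were abundant, with 6 of 6 at 1707 TPM or more in each library (TPM is an abundance scaled for transcript length and for the library total). The fibroblast genes Col1a1 (2951 and 2181 TPM) and Col3a1 (2085 and 2085 TPM) also exceeded that value. These markers do not tell gastrocnemius from other muscles. The libraries held 30961087 and 36246031 expected counts, the authors' estimated read numbers per gene, in replicates 1 and 2. The signal recognition particle RNA genes Rn7s1 and Rn7s2 together took 36.2% and 35.8% of all TPM in the gene tables, but 0.000251% and 6.86e-05% in a separate quantification that the authors also deposited, called the other quantification below. TPM of all 10 genes described were higher there, and levels were compared within 1 quantification only. At a mean of at least 100 counts, 88 of 12257 genes (0.718%) stood over 2-fold apart between the libraries.

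The 3 MuRF genes are close relatives, and their sequences set how well reads can be assigned among them. MuRF proteins carry a RING domain, the part that hands ubiquitin to a substrate, near the start of the protein. The stretch of 90 coding bases most alike in all 3 genes lay at coding positions 79 to 168 of Trim54 and Trim55 and 70 to 159 of Trim63, within 1 exon in each. In genome build mm10 these were chr5:31116988-31117077, chr3:19644687-19644776 and chr4:134315293-134315382, all on the plus strand. They are shown 5′ to 3′ from the GENCODE M21 transcripts, with the 72 of 90 bases shared by all 3 genes in capitals.
Trim54: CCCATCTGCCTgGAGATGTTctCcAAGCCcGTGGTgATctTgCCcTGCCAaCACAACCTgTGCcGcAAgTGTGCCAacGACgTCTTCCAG
Trim55: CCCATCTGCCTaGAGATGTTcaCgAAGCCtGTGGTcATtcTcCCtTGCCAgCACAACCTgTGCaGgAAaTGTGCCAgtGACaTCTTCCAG
Trim63: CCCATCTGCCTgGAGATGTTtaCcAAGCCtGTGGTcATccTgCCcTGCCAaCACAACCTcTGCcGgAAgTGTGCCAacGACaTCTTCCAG
Over the whole coding sequence, aligned bases were identical at 67.4% between Trim54 and Trim63, 65.0% between Trim55 and Trim63 and 63.9% between Trim54 and Trim55. The longest run shared by a pair was 28 bases, between Trim54 and Trim63. No stretch of 31 bases was common to any pair of MuRF transcripts.

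The Foxo genes were compared in the same way. Their most similar 90 coding bases, within the forkhead region that binds DNA, spanned an intron in each gene. They were coding positions 570 to 659 of Foxo1 (chr3:52269371-52345076, plus strand, outer bounds with the intron), 567 to 656 of Foxo3 (chr10:42197864-42274867, minus strand) and 402 to 491 of Foxo4 (chrX:101255222-101258214, plus strand). The 74 of 90 bases shared by all 3 are in capitals.
Foxo1: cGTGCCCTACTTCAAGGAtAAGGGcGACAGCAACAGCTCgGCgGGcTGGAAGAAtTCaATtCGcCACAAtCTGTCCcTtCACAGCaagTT
Foxo3: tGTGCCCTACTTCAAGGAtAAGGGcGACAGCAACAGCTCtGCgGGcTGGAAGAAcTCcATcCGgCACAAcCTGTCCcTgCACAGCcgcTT
Foxo4: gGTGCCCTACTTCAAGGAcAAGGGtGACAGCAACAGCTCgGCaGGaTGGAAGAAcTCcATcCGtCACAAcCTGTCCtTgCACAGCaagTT
The longest identical run, 38 bases, joined Foxo1 and Foxo3, which shared 8 stretches of 31 bases out of 8635 and 6818. Over the whole coding sequence the Foxo pairs were identical at 60.0% for Foxo1 and Foxo3, 57.9% for Foxo3 and Foxo4 and 53.3% for Foxo1 and Foxo4.

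All 10 genes were detected, taken as 1 TPM or more in both libraries, beside 13336 of the 55536 genes measured. Their median level was 13.8 TPM in replicate 1 and 14.7 TPM in replicate 2, with median positions at the 62.1 and 64.2 percentiles of the 13336 detected genes. The order of mean levels was Trim54, Trim55, Foxo4, Foxo3, Trim63, Mul1, Fbxo21, Fbxo30, Foxo1 and Fbxo32. Of the 9 neighbouring pairs in this order, 7 had library ranges that did not overlap. The ranges overlapped for Foxo3 with Trim63 and for Mul1 with Fbxo21, and Trim63 and Mul1 were set apart only by 13.8 against 13.7 TPM in replicate 1. In the other quantification Mul1 ranked 8, below Fbxo21 and Fbxo30, and the order was otherwise the same. In whole muscle, fewer cells of a type and less RNA per cell cannot be told apart.

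**Figure D1:**
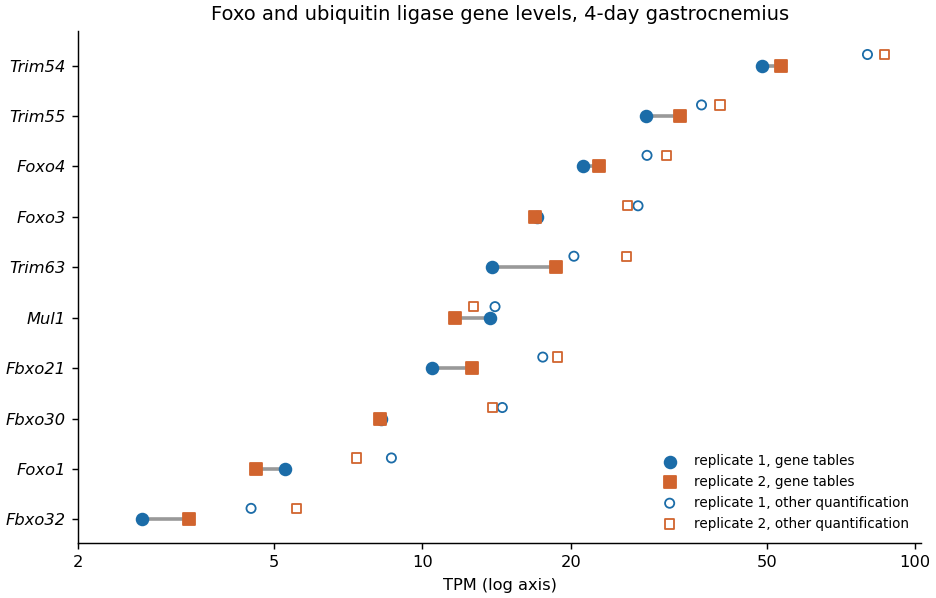
TPM on a log axis for the 10 genes, ordered by mean level in the gene tables. Filled symbols are the gene tables and open symbols the other quantification, with circles for replicate 1 and squares for replicate 2. Trim54 lies at 48.95 and 53.53 TPM and Fbxo32 at 2.70 and 3.36 TPM, the ends of the order.

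Foxo4 and Foxo3 stood above Foxo1 in both libraries. Foxo4 (ENSMUSG00000042903.8, chrX:101254528-101260873, plus strand), a factor under Akt control like its relatives, had 21.2 TPM in replicate 1 and 22.8 TPM in replicate 2. Foxo3 (ENSMUSG00000048756.11, chr10:42181841-42276755, minus strand) had 17.1 and 16.9 TPM. In mouse muscle this factor is best known for inducing Fbxo32 and autophagy genes. Foxo1 (ENSMUSG00000044167.6, chr3:52268336-52353221, plus strand), a regulator of glucose use as well as of atrophy genes, had 5.27 and 4.59 TPM. The library ranges of the 3 genes did not overlap.

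Foxo4 was 4.02-fold and 4.97-fold above Foxo1 in replicates 1 and 2, and Foxo3 was 3.25-fold and 3.68-fold above it. Foxo4 took 50.1% ± 2.02 of the summed TPM of the 3 genes, Foxo3 38.7% ± 0.797 and Foxo1 11.2% ± 1.22 (SD, n = 2). Counts, which are not scaled for length, gave another order. Foxo3 held 2824 and 3243 expected counts, the most of the 10 genes, and 49.8% of the 3-gene count, against 29.5% for Foxo4 and 20.7% for Foxo1. The leading transcripts were 8665 nt for Foxo1, 6848 nt for Foxo3 and 3162 nt for Foxo4, so the order of RNA molecules rests on the length scaling. In the other quantification Foxo4 stayed first, by only 1.04-fold over Foxo3 in replicate 1 and 1.20-fold in replicate 2. Foxo6, the remaining Foxo gene, had 2.98 and 3.38 TPM, and the 3 genes described here took 93.3% of the summed Foxo TPM.

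The summed level of the 3 Foxo genes was 43.6 TPM in replicate 1 and 44.3 TPM in replicate 2, close together beside the difference between the genes. Foxo1 was lower in replicate 2, and its exact Poisson 95% intervals, which cover counting error only, were 4.98 to 5.57 and 4.34 to 4.85 TPM. Foxo3 intervals overlapped, at 16.5 to 17.8 and 16.3 to 17.5 TPM.

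Trim54, not Trim63, was the most abundant MuRF gene. Trim54 (MuRF3; ENSMUSG00000062077.14, chr5:31116712-31137630, plus strand), whose protein binds microtubules and the sarcomere, had 48.95 and 53.53 TPM. Trim55 (MuRF2; ENSMUSG00000060913.6, chr3:19644474-19692421, plus strand), which associates with titin and assembling sarcomeres, had 28.5 and 33.4 TPM. Trim63 (ENSMUSG00000028834.13, chr4:134315120-134329629, plus strand), whose product targets thick filament proteins in wasting muscle, had 13.8 and 18.7 TPM. The 3 ranges did not overlap, and the order was the same in each library. Trim54 was 3.54-fold and 2.87-fold above Trim63, and 1.72-fold and 1.60-fold above Trim55.

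As shares of the 3-gene TPM, Trim54 took 52.2% ± 2.07, Trim55 31.4% ± 0.262 and Trim63 16.4% ± 1.81 (SD, n = 2). By library, the share of Trim63 was 15.1% in replicate 1 and 17.7% in replicate 2, and that of Trim54 53.6% and 50.7%. Trim63 was thus the smallest share in both libraries, with a larger part in replicate 2. Trim54 led under the other quantification (57.5%), by expected counts (44.8%) and with the annotated in place of the effective length (51.7%). The share of Trim55 was less firm, although it stayed between those of Trim54 and Trim63 in each library by every measure used. Its transcript Trim55-202, a processed transcript of 506 nt, held 116 and 127 expected counts but was given 10.2 and 9.81 TPM, 35.6% and 29.4% of the gene. In the other quantification that transcript held 12.5% and 3.54% of the gene. Its longer transcript Trim55-201, of 2595 nt, had 18.4 and 23.6 TPM, a range that overlapped that of Trim63. With transcripts under 1000 nt left out, an alternative chosen after seeing the data, the shares were 58.1% for Trim54, 23.6% for Trim55 and 18.3% for Trim63.

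**Figure D2:**
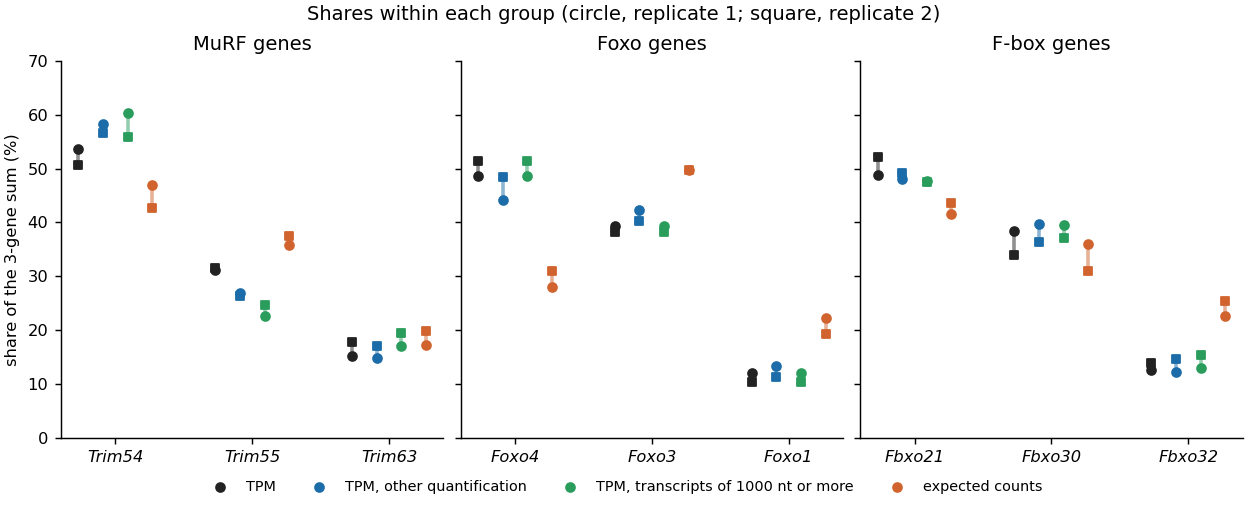
Share (%) of each gene in the sum of its 3-gene group, by 4 measures shown as colours, with circles for replicate 1, squares for replicate 2 and a line joining them. Trim54 leads its group by all 4 measures, while Foxo4 leads by TPM and Foxo3 by expected counts (49.8%).

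Among the 3 F-box genes described, the atrophy marker Fbxo32 was the lowest. F-box proteins bring substrates to the SCF complex, in which Cul1 is the scaffold. Fbxo21 (SMART; ENSMUSG00000032898.9, chr5:117976730-118010201, plus strand) had 10.5 and 12.6 TPM. Fbxo30 (MUSA1; ENSMUSG00000047648.13, chr10:11281330-11298052, plus strand), known in mice for its induction after denervation and its restraint by BMP signalling, had 8.23 and 8.19 TPM. Fbxo32 (ENSMUSG00000022358.7, chr15:58175879-58214932, minus strand), whose product is reported to target MyoD and eIF3f, had 2.70 and 3.36 TPM. The ranges of the 3 genes did not overlap. Fbxo21 took 50.5% ± 2.29 of their summed TPM, Fbxo30 36.2% ± 3.21 and Fbxo32 13.3% ± 0.921 (SD, n = 2).

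Fbxo32 stood at the 15.6 and 21.4 percentiles of detected genes, the lowest of the 10. Its counts, 519 and 735, were also the lowest of the 10 in each library, and its single annotated transcript is 6976 nt. Per length, Trim63 was 5.11-fold and 5.56-fold above Fbxo32, while its count was 1.30-fold and 1.43-fold that of Fbxo32. The pair most often used together as markers of wasting thus differed in level by more than the spread between libraries. In the other quantification the ratio of TPM was 4.52-fold and 4.68-fold.

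Mul1 (ENSMUSG00000041241.12, chr4:138434671-138442265, plus strand) encodes a ligase of the outer mitochondrial membrane that acts on mitofusin. It had 13.7 TPM in replicate 1 and 11.6 TPM in replicate 2, although its counts, 766 and 955, were higher in replicate 2. Its transcripts were split differently in the libraries. Mul1-203, of 473 nt, was given 6.95 and 3.86 TPM from 72.8 and 45.9 expected counts, 50.8% and 33.2% of the gene. It held 16.1% and 0% in the other quantification. Without it Mul1 had 6.74 and 7.76 TPM, higher in replicate 2 and below Fbxo21 and Fbxo30 in both libraries. In the other quantification the whole gene (14.0 and 12.7 TPM) was also below Fbxo21 (17.5 and 18.8 TPM) and Fbxo30 (14.5 and 13.9 TPM).

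The other genes were mostly carried by 1 transcript. Foxo1 and Fbxo32 have a single annotated transcript. Trim54-201 took 98.9% and 98.4% of Trim54 TPM, and Trim63-202, of 1886 nt, took 94.0% and 98.6% of Trim63 TPM. Trim63-201 and Trim63-204 are annotated and were given 0 counts in both libraries. Foxo4-201 took 81.5% and 87.1% and Foxo3-203 took 82.8% and 85.0% of their genes. The F-box genes were split. Fbxo30-201 took 53.1% and 58.5% and Fbxo30-202 the rest, and Fbxo21-201 took 57.7% and 60.0% and Fbxo21-206 19.5% and 20.6% of a gene with 6 annotated transcripts. In the other quantification Fbxo21-201 took 41.0% and 38.4% and Fbxo21-206 31.5% and 40.3%, so the leading transcript of replicate 2 was another one there. Fbxo21-204 was given 14.6% in replicate 1 and 0% in replicate 2, against 24.3% and 18.7% in the other quantification. Fbxo21-202 was given 0% and 15.5%, against 0% in both libraries there.

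**Figure D3:**
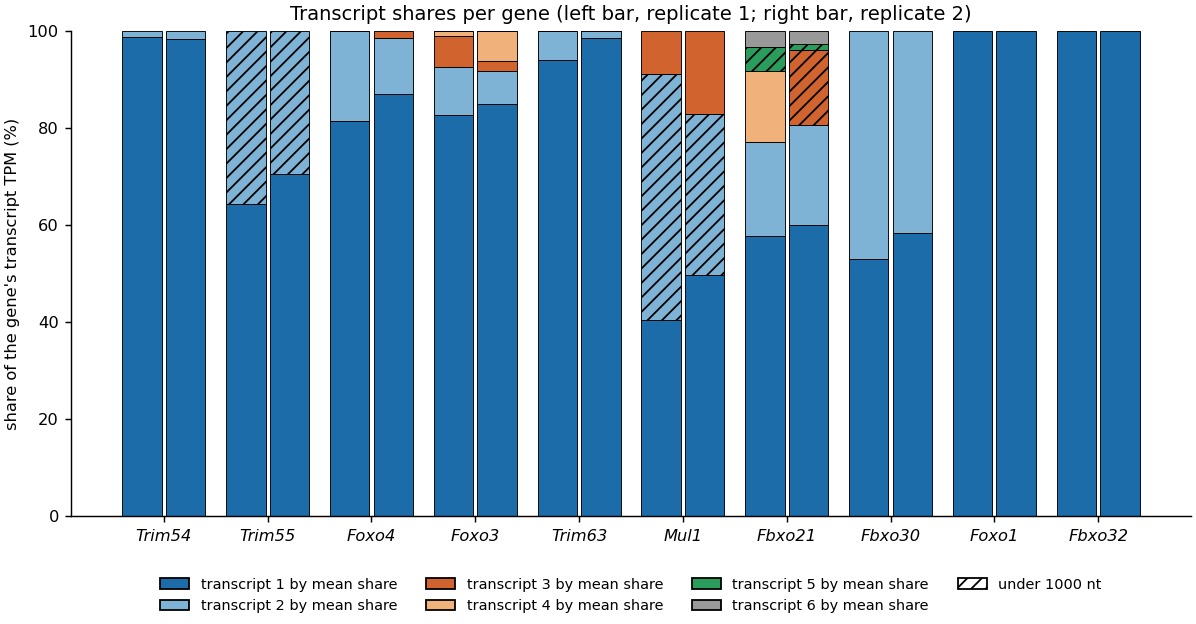
Share (%) of each gene's transcript TPM per annotated transcript, with replicate 1 in the left and replicate 2 in the right bar of each gene, and hatching for transcripts under 1000 nt. Short transcripts take 35.6% and 29.4% of Trim55 and 50.8% and 33.2% of Mul1 in the tables plotted, and less in the other quantification.

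Some of the genes overlap others or share sequence with them. Trim54 shares 302 of its 1404 stretches of 31 bases with the antisense gene Gm15469, which was given 0 counts in both libraries. Foxo1 shares 691 of 8635 stretches with other genes, 615 of them with the antisense gene Gm20402 (3 and 1 counts), and it overlaps, on its own strand, Gm38034 (56 and 40 counts). Trim55 holds the intronic BC002189 on its own strand (34 and 35 counts), and Fbxo32 meets the antisense Gm15943 (5 and 5 counts). Of 6924 stretches of Fbxo32, 288 are shared with other genes, 3328 of them, and 158 of these stretches are shared with Gm15943. Fbxo21 shares 181 stretches with Gm5403 (0 and 0 counts). The sources used here do not give how strand entered the counting, so it is not known whether reads of a gene and of its antisense partner were told apart.

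None of the 10 genes stood over 2-fold apart between the libraries, beside 0.718% of all genes. The log2 ratio of replicate 2 over replicate 1 was 0.47 for Trim63, 0.33 for Trim55, 0.32 for Fbxo32, 0.22 for Fbxo21, 0.18 for Foxo4, 0.14 for Mul1, 0.13 for Trim54, 0.02 for Foxo3, -0.06 for Fbxo30 and -0.19 for Foxo1. With 1 library against 1 there is no test of such a ratio. By the trimmed mean scaling, 8 of 10 members were higher in replicate 2, beside 6779 of the 12257 genes. The count of members was 7 by library size (Foxo3 turned). By spike-in scaling it was 5 (Foxo3 and Trim54 turned, and Mul1 stood at no difference). The median log2 ratio of the members was 0.16, beside 0.02 over all 12257 genes, whose middle 90% ran from -0.35 to 0.31. Library size scaling moved the median of all genes to -0.03 and that of the members to 0.11. Spike-in scaling moved the median of all genes to -0.12 and that of the members to 0.02. The number of all genes higher in replicate 2 was counted by the trimmed mean scaling only.

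Trim63 differed the most of the 10 between the libraries, with 674 and 1054 counts. Its log2 ratio was above that of 98.4% of genes, and its intervals of 12.8 to 14.9 TPM (replicate 1) and 17.6 to 19.8 TPM (replicate 2) did not overlap. Trim55, at 1398 and 1994 counts, was above 96.1% of genes, and Fbxo32 above 95.6%. Trim54 lay above 75.8%, inside the middle 90% of genes. The summed MuRF level was 91.3 and 106 TPM in replicates 1 and 2, and the summed F-box level 21.4 and 24.1 TPM.

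Markers of cell types also differed between the libraries. The 6 muscle fibre genes were all higher in replicate 2, with log2 ratios of 0.16 to 0.34 and summed levels of 35335 and 41849 TPM, and the same 6 of 6 were higher by spike-in scaling. The 4 red cell genes were all lower in replicate 2 (median log2 ratio -2.46, summed level 1230 and 230 TPM). The 4 liver genes were all higher in replicate 2 (median 3.42, summed level 7.22 and 77.8 TPM), with none at 0 and Fga at 0.27 TPM in replicate 1. The other lists of 4, all detected, held members of both directions. Summed fibroblast genes had 5342 and 4540 TPM, with 1 of 4 log2 ratios above 0 and the largest difference in Col1a1 (2951 and 2181 TPM). Summed adipocyte genes had 394 and 333 TPM, with 1 of 4 above 0, namely Cfd (46.0 and 59.55 TPM). Endothelial genes summed to 207 and 190 TPM, yet 3 of 4 had ratios above 0, and the lower sum in replicate 2 came with Egfl7 (77.1 and 50.9 TPM). By spike-in scaling, 0 of the 4 endothelial genes had ratios above 0, where the median over the 12257 genes was -0.12. Macrophage genes summed to 82.7 and 75.7 TPM, with 1 of 4 above 0. The log2 ratio of Trim63 was above the whole range of the fibre genes, whose upper end was set by Ckm at 0.34. Those of Trim55, Fbxo32, Fbxo21 and Foxo4 lay within the range. Those of Trim54, Mul1, Foxo3, Fbxo30 and Foxo1 lay below it. The part of cell makeup in these differences was not tested.

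**Figure D4:**
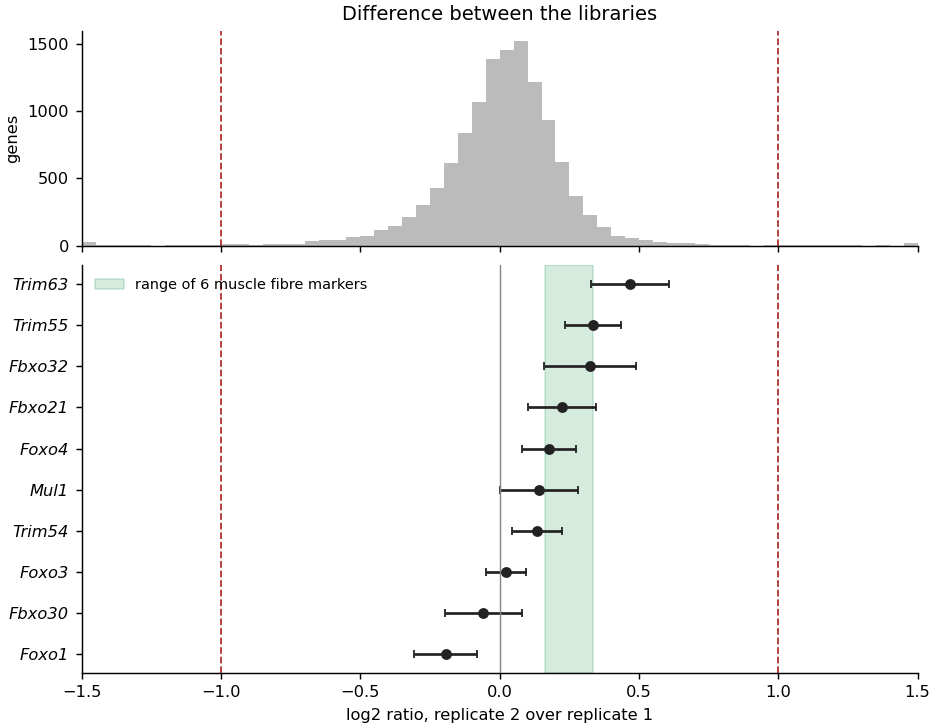
Upper panel, number of genes by log2 ratio of replicate 2 over replicate 1 among the 12257 genes averaging 100 counts or more, with values beyond the axis placed in the end bins. Lower panel, the ratio of each of the 10 genes with its exact 95% counting interval, a shaded band for the range of 6 muscle fibre markers and dashed lines at 2-fold. All 10 lie inside the dashed lines, from Foxo1 at -0.19 to Trim63 at 0.47.

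Within their families by symbol, Trim54 and Trim55 ranked high and Fbxo32 low. Of 68 Trim genes, 33 were detected, and Trim54 ranked 4, Trim55 5 and Trim63 9 by mean TPM. The 3 genes above them were Trim35 (135 and 146 TPM), Trim72 (95.7 and 114 TPM), a muscle gene whose product (MG53) repairs the surface membrane, and Trim28 (96.4 and 89.4 TPM), a corepressor. The MuRF genes took 14.6% of the summed TPM of the Trim genes. Of 36 Fbxo genes, 26 were detected. Fbxo21 ranked 6 and Fbxo30 10, above the median of 7.52 TPM of the detected Fbxo genes, and Fbxo32 ranked 22, below it. Fbxo11 (20.9 and 20.6 TPM), Fbxo31 (18.5 and 20.4 TPM) and Fbxo9 (16.9 and 18.9 TPM) led that family. In the other quantification Trim63 ranked 12 and Fbxo32 again 22.

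**Figure D5:**
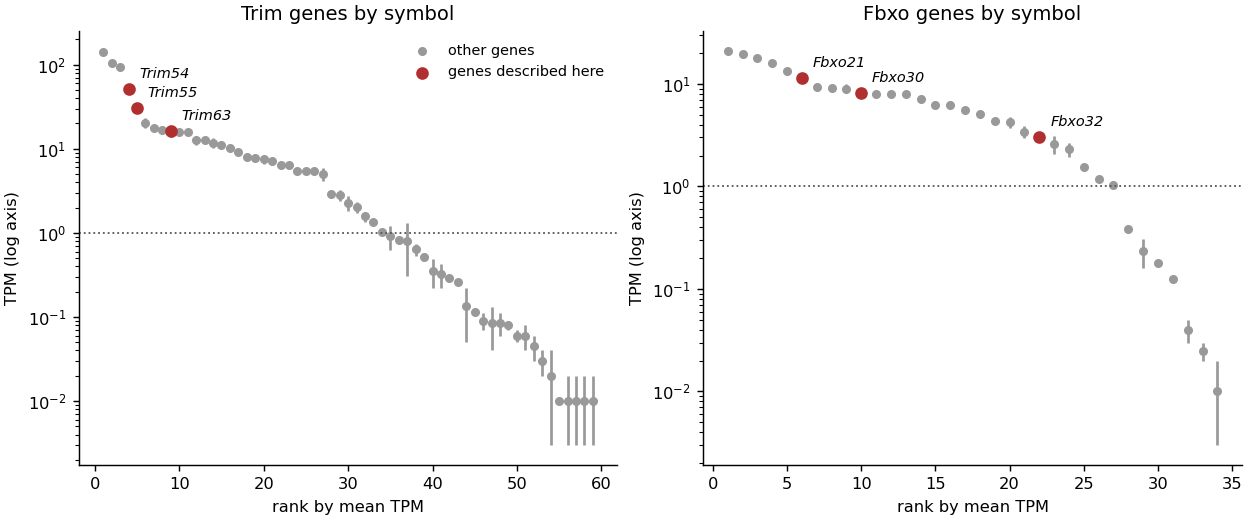
TPM on a log axis against rank by mean TPM for genes whose symbols begin with Trim or Fbxo and that had a value above 0, with points for means, lines from one library to the other (drawn down to 0.003 TPM where a library was lower) and the 1 TPM limit dotted. Trim54 and Trim55 rank 4 and 5, and Fbxo32 ranks 22.

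All 21 listed genes that control FoxO activity were detected, with medians of 17.5 and 16.5 TPM in replicates 1 and 2. Detection in this and the following lists stands beside 13336 of the 55536 genes measured. The lists were chosen with earlier results of these data known. The kinase genes Akt1 (96.2 and 99.6 TPM) and Akt2 (71.7 and 72.4 TPM), whose products phosphorylate FoxO proteins, stood highest, each above the summed Foxo level of 43.6 and 44.3 TPM. They were followed by the glucocorticoid receptor gene Nr3c1 (38.8 and 38.5 TPM) and the deubiquitinase gene Usp7 (34.8 and 29.7 TPM). Log2 ratios between libraries ran from -0.45 to 0.41, with a median of 0.05. By trimmed mean scaling, 14 of 21 were higher in replicate 2, beside 6779 of the 12257 genes. By spike-in scaling 5 of 21 were higher, with a list median of -0.09 beside -0.12 over the 12257 genes. These are RNA levels and carry no information on FoxO phosphorylation or location.

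Genes reported as FoxO targets outside the ligases were also all detected, 19 of 19, with medians of 20.2 and 22.6 TPM. Txnip, an inhibitor of thioredoxin and of glucose uptake, had 104 and 139 TPM. Eif4ebp1, a repressor of translation, had 70.4 and 77.3 TPM, the lysosomal protease gene Ctsl 71.9 and 69.0 TPM and the mitochondrial superoxide dismutase gene Sod2 69.6 and 71.0 TPM. The targets differed in direction among themselves between the libraries. Their log2 ratios ran from -0.42 to 0.72 with a median of 0.09, and none was over 2-fold apart. By trimmed mean scaling, 14 of 19 were higher in replicate 2, beside 6779 of the 12257 genes. By spike-in scaling 6 of 19 were higher, with a list median of -0.06 beside -0.12 over the 12257 genes. The highest ratio, chosen after its value was seen, was that of Pdk4 (37.0 and 60.4 TPM), whose kinase limits glucose oxidation. All 19 stood above Fbxo32, the lowest of them being Irs2 (6.14 and 6.08 TPM), an adaptor of the insulin receptor.

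Some other ubiquitin ligase genes stood above all 7 described here. Of 21 listed symbols, 20 were matched and all 20 detected, with medians of 16.01 and 16.8 TPM. Nedd4, a HECT ligase, had 329 and 341 TPM, far above Trim54. Trim72, also above Trim54, was followed by Huwe1 (55.6 and 56.5 TPM), another HECT ligase. In the other quantification Huwe1 (89.6 and 84.9 TPM) was below Trim54 (80.1 and 86.6 TPM) in replicate 2. Stub1 (48.1 and 51.6 TPM), the chaperone-linked ligase CHIP, stood below Trim54 in both libraries. Log2 ratios of the 20 ran from -0.39 to 0.37, with a median of 0.07. By trimmed mean scaling, 17 of 20 were higher in replicate 2, beside 6779 of the 12257 genes. By spike-in scaling 6 of 20 were higher, with a list median of -0.07 beside -0.12 over the 12257 genes.

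The genes of the machinery with which these ligases work were also detected throughout. The SCF core genes, 5 of 5 matched, had medians of 50.6 and 48.6 TPM, led by Nedd8 (104 and 107 TPM), which activates cullins, the adaptor gene Skp1a (90.1 and 90.4 TPM), the RING subunit gene Rbx1 (50.6 and 48.6 TPM) and Cul1 (36.5 and 34.5 TPM). Their levels differed little between libraries, with log2 ratios of -0.06 to 0.07. All 5 stood above the summed level of the 3 F-box genes. Among 15 ubiquitin and E1 or E2 enzyme genes, all detected, Ubb had 444 and 469 TPM and Rps27a 406 and 427 TPM. Both encode ubiquitin. Sequence that they share with other genes was not measured here.

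Genes of proteins reported as substrates of these ligases were detected in 16 of 16 cases, with medians of 177 and 193 TPM. The contractile genes Mylpf (10460 and 12449 TPM) and Myl1 (6290 and 7172 TPM), the creatine kinase gene Ckm (3911 and 4984 TPM) and the titin gene Ttn (1707 and 1903 TPM) led. By trimmed mean scaling, 15 of the 16 were higher in replicate 2, beside 6779 of the 12257 genes. The median log2 ratio of the 16 was 0.21, near the 0.24 of the fibre markers, with which the list shares Mylpf, Ckm and Ttn. By spike-in scaling 10 of the 16 were higher, with a list median of 0.07 beside -0.12 over the 12257 genes.

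Promoter windows from RefSeq (build GRCm38.p6) were on hand for 7 of the 10 genes and covered the 250 bases before the start in that set. That start can differ from the gene start given above. The Trim63 window ends directly before its gene start, while that of Trim54 ends at 31116611, short of its gene start at 31116712. The Fbxo30 window begins at 11281337, past its gene start at 11281330. They were searched on both strands for the forkhead core GTAAACA and for the E-box CANNTG, the site of myogenic bHLH factors. The windows of the highest and lowest MuRF gene with an entry are shown, Trim54 at chr5:31116362-31116611 and Trim63 at chr4:134314870-134315119, both on the plus strand and 5′ to 3′. Capitals mark E-boxes and, in Trim63, the forkhead core read from the other strand (TGTTTAC).
Trim54 promoter: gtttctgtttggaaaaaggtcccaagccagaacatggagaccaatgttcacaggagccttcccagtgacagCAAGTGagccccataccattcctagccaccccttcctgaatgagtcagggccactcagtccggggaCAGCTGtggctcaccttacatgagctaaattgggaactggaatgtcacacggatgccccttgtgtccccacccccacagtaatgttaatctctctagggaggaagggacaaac
Trim63 promoter: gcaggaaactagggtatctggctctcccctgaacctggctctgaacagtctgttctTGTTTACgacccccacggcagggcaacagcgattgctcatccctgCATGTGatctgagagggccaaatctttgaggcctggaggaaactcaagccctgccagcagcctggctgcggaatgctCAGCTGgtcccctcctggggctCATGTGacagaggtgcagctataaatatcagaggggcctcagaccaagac
The forkhead core of Trim63 lies 194 bases before its start, and its E-boxes lie 149, 72 and 50 bases before it. Trim54 held E-boxes 179 and 113 bases before the RefSeq start, which is not its gene start, and no forkhead core in this window. Among the 7 windows, 1 held the forkhead core, against 3.17% of 32851 promoter windows and 2.14% of 12460 windows of detected genes. An E-box was present in 4 of the 7 (57.1%), against 66.2% of all windows and 57.5% of windows of detected genes. Each match is a description of letters and not a measured binding site.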

How the data were processed

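For each library the authors deposited, per the file headers, tables of genes and of transcripts holding expected counts (estimated reads per feature, not always whole) and TPM, and a separate transcript table with estimated counts and TPM, summed here per gene. Per the labels and the notes deposited with the files, the build was mm10 and the annotation M21. The aligner was not stated, nor were the counters (not given in the sources used here). Effective length was the length minus 99 nt. After rounding of the expected counts, edgeR 4.0.16 under R 4.3.3 gave trimmed mean scaling over genes averaging 10 counts or more and log2 ratios with a prior count of 2. The ratio step was tested on simulated data. With 1 library against 1, no p-value was computed. Genes over 2-fold apart were counted at a mean of 100 counts or more. Intervals of levels are exact Poisson 95% intervals, and those of ratios exact binomial ones. Both parental alleles were counted together on mm10, which represents C57BL/6J. Python 3.11.15, pandas 2.3.3, scipy 1.17.1 and matplotlib 3.10.9 were used otherwise. As alternatives, scaling used size factors from DESeq2 1.42.0, library size or spike-ins. Further ones were changed minimums and prior counts, TPM rescaled without spike-ins, tRNA and mitochondrially encoded genes, the other quantification, counts or annotated length for shares, and each library alone. The members and lists were chosen with earlier results of these data known. Named genes were every member, up to 4 genes of highest mean TPM and any gene under 1 TPM in a library of each other list, and the 3 highest Trim and Fbxo genes outside the members. Foxo6 is the only other Foxo gene, and Pdk4 and Irs2 were named after their values were seen. Some genes that the rule names are not reported here. A planned comparison of protein sequences was not made, and coding sequences were compared instead.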

Additional observations from a re-analysis of the deposited data

How the results depend on the processing

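Each library alone gave a median member level of 13.8 to 14.7 TPM, a Trim54 share of 50.7% to 53.6%, a Foxo4 share of 48.6% to 51.5%, an Fbxo21 share of 48.9% to 52.1% and a median leading transcript share of 82.2% to 86.1%. Against a mean of 14.2 TPM, the median member level was 20.6 TPM in the other quantification, 15.7 TPM after rescaling without spike-ins, tRNA and mitochondrially encoded genes, and 12.8 TPM with transcripts under 1000 nt left out. By expected counts the shares were 44.8% for Trim54, 29.5% for Foxo4 and 42.6% for Fbxo21, and Foxo4 lost the lead to Foxo3. Counts are not scaled for length, so long transcripts weigh more. In the other quantification the shares were 57.5% for Trim54 and 46.3% for Foxo4, and the median leading transcript share was 92.2% against 84.1%. Without short transcripts the shares were 58.1% for Trim54 and 47.6% for Fbxo21. The cause of the difference between quantifications was not tested. Genes over 2-fold apart numbered 660 at a mean of 10 counts or more and 14 at 1000 or more, against 88, and 76 to 106 under the other scalings and quantification. No member was over 2-fold apart under any of these, nor under prior counts of 0.5 and 5 or without the low count filter. At 0.5 TPM 10 members were detected, and at 5 TPM 8. Of the 6 pathway lists, the FoxO control list kept 18 of 21 genes and the other ligases 18 of 20 at 5 TPM, and the other lists lost no gene. For single genes, 145 alternative values stayed within the spread or counting interval and 41 did not. Among the 41 were 9 of 10 levels in the other quantification and 8 of 10 log2 ratios with spike-in scaling. The 145 include values of each library alone, which with 2 libraries lie within the SD by construction and so tell nothing of robustness. The 41 include 1 value that differed by rounding only, the leading transcript share of Foxo1, 100% in both libraries. The lowest member count was 519. The spread rests on 2 libraries of 1 group.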
